A study of Drosophila melanogaster with 8 samples.

Results

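Chromosome 4 of Drosophila melanogaster is a very small autosome, and RNA polymerase II (RNAPII) occupancy along it is described here for S2 cells with and without depletion of the linker histone H1. Its members are all entries of the authors' deposited table that lie on chromosome 4, chosen by position alone: 88 of 14357 entries, which merge by overlap into 51 of 7911 loci. They carry 41 gene names of 4755. By the authors' annotation, 31 loci were promoters, 11 were repeats, and 9 were other sites (exon, 5' UTR, transcription termination site or intergenic).

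In the study, S2 cells depleted of H1 (labelled KD H1) stood against control cells in which the treatment was aimed at LacZ, a gene of bacteria that flies lack. S2 is a hemocyte-like cell line, and no genotype, time or dose is labelled beyond the treatment. Each condition had 2 RNAPII chromatin immunoprecipitation (ChIP) libraries and 2 inputs, each from 10% of the chromatin. The deposited files hold 1 mean log2 concentration per condition and interval and 1 pooled peak list per condition, so depth and values per library are unknown and no spread between replicates can be given. A fold here is the log2 concentration after H1 knockdown less that in LacZ cells, and positions are in dm3. Replicates are not tied to different cultures in the labels; the p-values therefore measure only the spread between these libraries, which may be technical. In a cell population, more RNAPII per cell and more cells with RNAPII at a site cannot be told apart, and RNAPII occupancy does not measure how far H1 was depleted.

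As background, chromosome 4 is heterochromatic over most of its length, rich in transposons and coated by the heterochromatin protein HP1a, with histone H3 methylated at lysine 9. Its genes are nevertheless transcribed, and a protein particular to it, Pof, binds the nascent RNA of its active genes. H1 binds the linker DNA between nucleosomes and is a structural part of compact chromatin. RNAPII ChIP gives its sharpest peaks at active promoters, where the polymerase pauses shortly after initiation.

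Cell identity was read from marker genes with a site within 1000 bp of their transcription start site (TSS). Of 10 hemocyte markers, 9 had such a site (srp, ush, Pxn, Hml, crq, vkg, Col4a1, Ppn and eater) and NimC1 had none. Of 10 markers of other fly cell types, elav and bam had a site and the other 8 had none. The 9 hemocyte markers had a median fold of 0.01 in the authors' deposited table, with a range from -0.02 to 0.14.

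RNAPII peaks were counted gene by gene. Of the 80 protein-coding genes that Release 6 places on chromosome 4, 34 (42.5%) had a non-repeat site within 1000 bp of their TSS, against 31.1% of 2197 on the X and 29.1% of 11645 on the autosomal arms (2L, 2R, 3L and 3R). Of these 34 chromosome 4 genes, 10 had a site in the knockdown list only. The same held for 141 of 684 protein-coding genes with such a site on the X and 530 of 3388 on the arms. With a LacZ-list peak at the site, a count added after the data were seen, 24 of 80 (30.0%) remained, against 24.7% on the X and 24.5% on the arms. The difference between chromosomes was not tested. The annotation gives each peak to 1 gene, so a gene that shares a promoter with its neighbour can be missed. Coverage by gene group was as follows. Of 15 chromosome 4 genes for basic cell functions, 10 had a site, and each had a LacZ-list peak there. Of 15 listed signalling genes, 7 had one, of which 5 were in the knockdown list only. Crk and myo alone of this list had a LacZ-list peak. The kinase gene CaMKII was not in this list, and its promoter had peaks in both lists. Of 15 transcription factor genes, 3 had one, all with a LacZ-list peak: pan, lgs and Hcf. No site near a TSS was listed for the developmental regulators ci, ey, toy, sv, Sox102F, zfh2, fd102C, onecut, pho, NfI, Mitf and dati. The nerve and muscle list had a site at 3 of 11 genes, 2 of them in the knockdown list only. None was listed at bt, which encodes a giant muscle protein, or at Syt7, Cadps, Ekar, Gat and mGluR.

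To compare levels between intervals of unequal width, concentrations were expressed per kb. The highest promoter in LacZ cells was that of ATPsynbeta, the catalytic beta subunit of mitochondrial ATP synthase (1052060 to 1052923), with a log2 concentration per kb of 9.40 in LacZ and 9.58 after H1 knockdown. Its peak ranked 389th of 6885 by the authors' fold enrichment over input in the LacZ list and 438th of 7472 in the knockdown list. Next came RpS3A, a small-subunit ribosomal protein gene whose site lay in its first exon, 202 bp from the TSS (87219 to 88043), at 9.35 and 9.42 per kb. The promoter of myo, which encodes the TGF-beta family ligand myoglianin, had 9.29 and 9.52 (716283 to 716937). The DNA repair and proteasome shuttle gene Rad23 had 9.24 and 9.50 (328521 to 329116). All these values are from the authors' deposited table, divided by interval width here.

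The lowest LacZ promoter level was at the antisense RNA gene asRNA:CR44030, at 8.31 per kb, and the 31 promoters together had a median of 8.82. Promoters of the autosomal arms had a median of 9.24 per kb, those of the X 9.10 and the 16 on the placed heterochromatic scaffolds (2LHet, 2RHet, 3LHet, 3RHet, XHet and YHet) 8.85. Promoters in the knockdown list only made up 41.9% on chromosome 4 and 16.3% on the arms. With peaks in both lists, the medians were 9.002 per kb on chromosome 4 and 9.305 on the arms. Chromosome 4 promoter levels were taken over the knockdown-list interval. Where both lists had a peak, that interval was wider by a median of 97 bp, against 53 bp on the arms. The parts of list make-up and interval width in these level differences were not tested. Of the 31 promoter loci, 27 lay within 200 bp of the assigned TSS, by the centre of the peak.

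**Figure D1:**
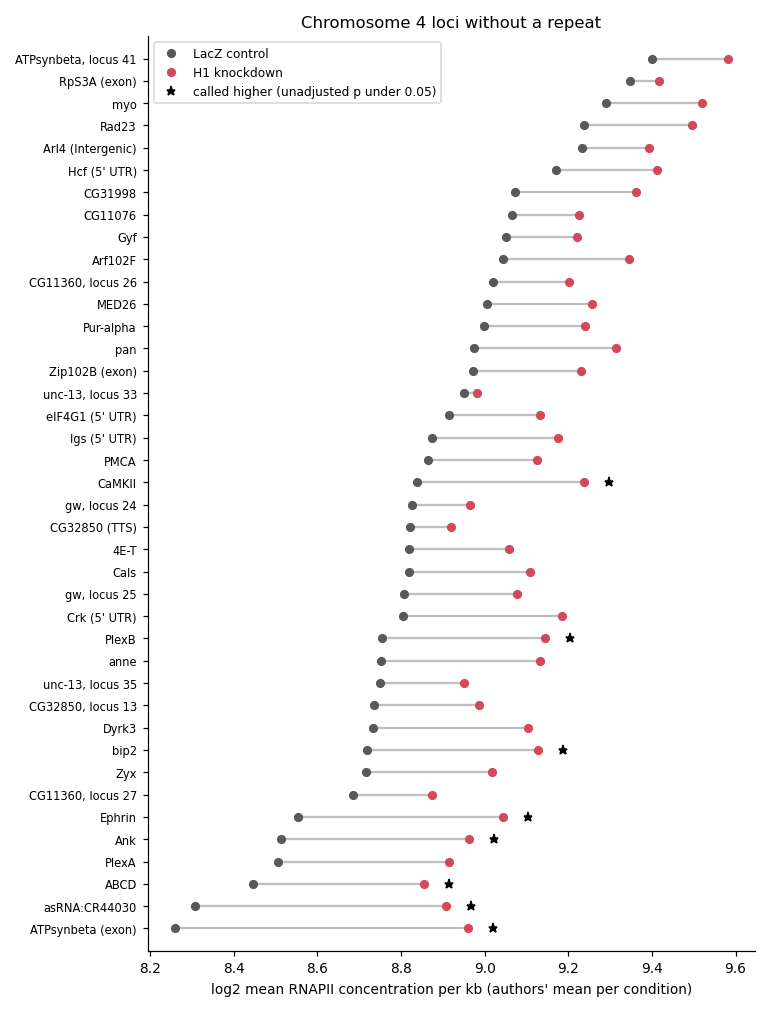
The authors' mean log2 RNAPII concentration per kb (x axis) at each of the 40 chromosome 4 loci without a repeat, ordered by the LacZ level, with the locus's place along the chromosome where a gene has several; gray points are LacZ, red points H1 knockdown, stars mark authors' calls at an unadjusted p under 0.05, and no error bars exist because the files hold no values per library. Every red point lies to the right of its gray point, from the ATPsynbeta promoter at the top to an exon site of ATPsynbeta at the bottom.

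The comparison of H1 knockdown with LacZ asked where RNAPII occupancy differed after H1 depletion. On chromosome 4, all 31 promoter loci had a fold above 0 in the authors' deposited table, from 0.02 to 0.61 with a median of 0.27, a 1.21-fold difference. All 9 other non-repeat sites were also above 0, from 0.07 to 0.71 with a median of 0.23. Of these 9, 6 lay within 1000 bp of a TSS. The 1176 other non-repeat loci of the whole table had a median fold of 0.10, with 66.3% above 0. The 11 repeat loci spread on both sides of 0, from -0.20 to 0.16 with a median of -0.02. For comparison, the 4031 promoter loci of the whole table had a median fold of 0.16, with 93.8% above 0, and its 2704 repeat loci one of -0.04, with 30.8% above 0.

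No chromosome 4 entry passed an FDR of 0.05 in the authors' DiffBind analysis, nor did any of all 14357 entries (0%). At an unadjusted p under 0.05, 9 of the 88 entries were called, all higher. After merging, with the most concentrated entry standing for each locus, 8 of 51 loci (15.7%) were called higher, against a background of 5.09% of all loci. Of these 8, 7 had a peak in the knockdown list only. None was called lower, against a background of 0.101%. Of the promoters, 7 of 31 (22.6%) were called higher, where the background over all promoter loci was 6.7%. None of the 11 repeats was called, against 0.962% of all repeat loci. Of the 88 entries, 87 had an FDR of 1. Loci are not replicates, and the difference between chromosome 4 and other compartments was not tested.

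**Figure D2:**
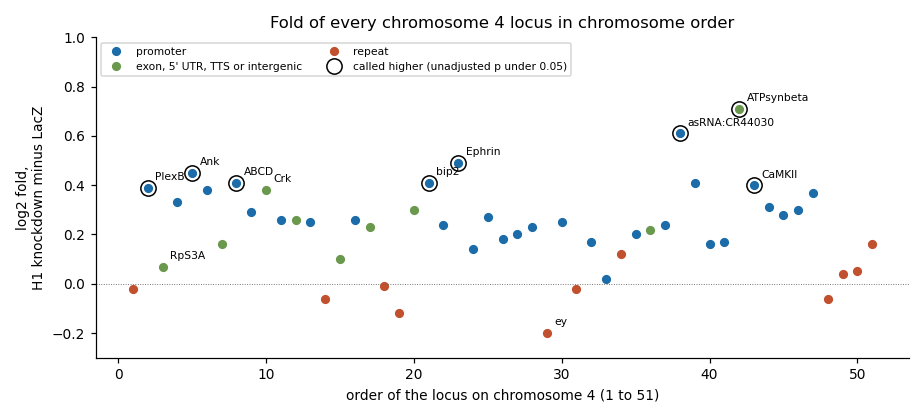
Log2 fold (y axis, H1 knockdown minus LacZ) of each of the 51 chromosome 4 loci in their order along the chromosome (x axis); blue marks promoters, green other non-repeat sites, orange repeats, and rings mark authors' calls at an unadjusted p under 0.05. Blue and green points lie above 0 along the whole order, and the 7 points below 0 are all repeats.

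The called promoters are given here one at a time. Ephrin, the ligand of the Eph receptor, had a promoter log2 concentration of 6.60 in LacZ and 7.09 after knockdown in the authors' deposited table (592349 to 592606), a fold of 0.49 with p = 0.0453 and an FDR of 1. The gene of its receptor, Eph, had no site near its TSS. PlexB, which encodes a receptor for the guidance cues called semaphorins, had 7.35 and 7.74 (64140 to 64517; fold 0.39, p = 0.0431, FDR 1 in the authors' deposited table). The other plexin gene, PlexA, had a slightly larger fold of 0.41, from 7.26 to 7.67, but p = 0.217 in the authors' deposited table, so it was not called (1047393 to 1047814). Ank, the gene of an ankyrin that links membrane proteins to the spectrin skeleton, went from 6.99 to 7.44 in the authors' deposited table (150261 to 150608; fold 0.45, p = 0.044, FDR 1). CaMKII, a calcium-responsive kinase of synapses and other cells, had 7.65 and 8.05 in the authors' deposited table (1071690 to 1072128; fold 0.40, p = 0.0417, FDR 1). CaMKII was the only called promoter of chromosome 4 with a peak in both lists. That call was at its knockdown-list peak. The narrower LacZ-list peak of the same promoter, with a fold of 0.37, had p = 0.0734 and was not called in the authors' deposited table.

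The remaining called promoters belonged to bip2, ABCD and asRNA:CR44030. The promoter of bip2, the gene of the TFIID subunit Taf3, had 7.22 in LacZ and 7.63 after knockdown in the authors' deposited table (487197 to 487550; fold 0.41, p = 0.0453, FDR 1). ABCD, which encodes an ATP-binding cassette transporter of subfamily D, went from 7.29 to 7.70 in the authors' deposited table (213971 to 214419; fold 0.41, p = 0.0424, FDR 1). The largest promoter fold, 0.61, belonged to asRNA:CR44030, at 6.83 and 7.43 in the authors' deposited table (980465 to 980823; p = 0.0115, FDR 1). ChIP reads carry no strand, so polymerase on this antisense gene and on an overlapping partner cannot be told apart.

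The smallest p on the chromosome was within ATPsynbeta, in its exon 2, 1101 bp downstream of the TSS (1053427 to 1053756). This site had a log2 concentration of 6.66 in LacZ and 7.36 after knockdown in the authors' deposited table, a fold of 0.71 with p = 0.00339 and an FDR of 0.963. The promoter peak of the same gene, described above, had a fold of 0.17 with p = 0.294 in the authors' deposited table. The exon site was in the knockdown list only and so was listed through that condition alone, with a LacZ level of 8.26 per kb. The promoter had peaks in both lists. Whether the folds of exon site and promoter differ was not tested.

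Gene groups were read from 1 site per gene near the TSS, the one of highest mean concentration; over all 4276 genes with such a site the median fold was 0.16 and 6.74% were called higher. With a LacZ-list peak at the site, 24 chromosome 4 genes had a median of 0.24 with 1 called (4.17%), against 0.14 and 4.22% over all 3582 such genes. The 7 listed signalling genes had a median fold of 0.38, from 0.23 to 0.49, with 2 called (Ephrin and PlexB). The called kinase gene CaMKII, described above, was not in this list. Both called genes, PlexA, Dyrk3 and Zyx were in the knockdown list only and so were listed through that condition alone. This median therefore cannot be set beside those of other groups, and Crk and myo, which had a LacZ-list peak, had 0.38 and 0.23. Besides the plexins and Ephrin these were the SH2 and SH3 adaptor gene Crk (0.38, p = 0.0516), the kinase gene Dyrk3 (0.37, p = 0.089), the focal adhesion gene Zyx (0.31, p = 0.189) and myo (0.23, p = 0.181), in the authors' deposited table. Crk lay just outside the call: its knockdown-list peak missed it, while the narrower LacZ-list peak of the same 5' UTR site, with a fold of 0.42, had p = 0.0373 and was called in the authors' deposited table.

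The 10 genes for basic cell functions had a median fold of 0.22, from 0.07 to 0.26, and none was called. Lowest in p were Rad23 (0.26, p = 0.124), the zinc transporter gene Zip102B (0.26, p = 0.135), the calcium pump gene PMCA (0.26, p = 0.182) and Thd1, which encodes a thymine DNA glycosylase (0.22, p = 0.212), by the authors' deposited table. Thd1 and Pur-alpha, a gene for a DNA- and RNA-binding protein, share this site: its knockdown-list peak was annotated to Pur-alpha and its LacZ-list peak to Thd1. Translation and RNA silencing genes of this group had values of 0.22 for the initiation factor gene eIF4G1, 0.24 for the eIF4E-binding repressor gene 4E-T, 0.17 for Gyf and 0.14 for gw, the gene of the Argonaute partner GW182, in the authors' deposited table. RpS3A had the lowest, 0.07, with 9.07 in LacZ and 9.14 after knockdown.

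The 3 transcription factor genes were 2 nuclear effectors of Wingless signalling, pan (8.24 and 8.58, fold 0.33, p = 0.063) and lgs (7.56 and 7.86, fold 0.30, p = 0.109), and the coregulator gene Hcf (8.22 and 8.46, fold 0.23, p = 0.187), in the authors' deposited table. None was called. The 3 members of the nerve and muscle list with a site were Ank, Cals and unc-13. The role of Ank given above is not particular to these tissues. The calsyntenin gene Cals (7.10 and 7.39, fold 0.28, p = 0.187) and the synaptic vesicle priming gene unc-13 (7.70 and 7.90, fold 0.20, p = 0.285) were not called in the authors' deposited table. Of the 3, only Ank was called. Ank and Cals were in the knockdown list only.

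At the low end, one promoter site of unc-13 (925489 to 925771) had a fold of 0.02, from 7.13 to 7.16, the smallest of the 31 promoters in the authors' deposited table. It was followed by gw (680432 to 681387, 0.14), CG11076 (0.16), the ATPsynbeta promoter and Gyf (0.17 each) and CG11360 (691646 to 692077, 0.18). A further promoter locus was listed for gw and for CG11360: gw at 683400 to 683844 with 0.27, and CG11360 at 700339 to 700647 with 0.20, in the authors' deposited table. Among the strongest promoters by concentration, Pur-alpha had 0.24, myo 0.23 and Rad23 0.26. High in the order without being called were anne (0.38, p = 0.0631 in the authors' deposited table) and Dyrk3. Values between these ends were held by Arf102F, a small GTPase gene (0.30), CG31998 (0.29), the Mediator subunit gene MED26 (0.25) and CG32850 (0.25), in the authors' deposited table.

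The sites outside promoters that were not yet described lay near Arl4 and PMCA. An intergenic site 2048 bp upstream of the small GTPase gene Arl4 (201391 to 202735) was among the strongest of the chromosome, with 9.66 in LacZ and 9.82 after knockdown and a fold of 0.16 (p = 0.306) in the authors' deposited table. A small site at the annotated termination site of a PMCA transcript (348354 to 348619) had 6.91 and 7.01, a fold of 0.10 (p = 0.663) in the authors' deposited table.

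Peak lists were compared next. All 37 LacZ-list peaks on chromosome 4 overlapped a knockdown-list peak, and 37 of the 51 knockdown-list peaks (72.5%) overlapped a LacZ-list peak. The other 14 loci, found in the knockdown list only, were 13 promoters and the exon site of ATPsynbeta. The promoters were those of PlexB, Ank, ABCD, CG32850, bip2, Ephrin, CG11360 (the site at 700339), unc-13 (the site at 925489), asRNA:CR44030, PlexA, Zyx, Cals and Dyrk3. On the autosomal arms, 83.1% of 4243 knockdown-list and 95.7% of 3784 LacZ-list peaks overlapped one of the other list. Loci in the knockdown list only made up 27.5% of the 51 chromosome 4 loci, against 14.9% of all 7911 loci. Among promoters the share was 41.9% of 31 on chromosome 4, against 17.2% of all 4031 promoter loci. These differences were not tested.

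The 13 promoters of the knockdown list only had LacZ levels from 8.31 to 8.95 per kb and a median fold of 0.39, with 6 called (46.2%; 19.4% of all 695 such promoters in the table). The 18 promoters with peaks in both lists had LacZ levels from 8.75 to 9.40 per kb and a median fold of 0.245, from 0.14 to 0.40, with 1 called (5.56%; 4.07% of all 3315 such promoters in the table). Peak lists and folds come from the same libraries, and a promoter in the knockdown list only was listed through that condition alone. Of all 695 such promoters in the table, 688 had a fold above 0, and the lowest was -0.05. The fold and call of such a promoter are therefore not separate support. Of the 8 called loci, 7 were in the knockdown list only.

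**Figure D3:**
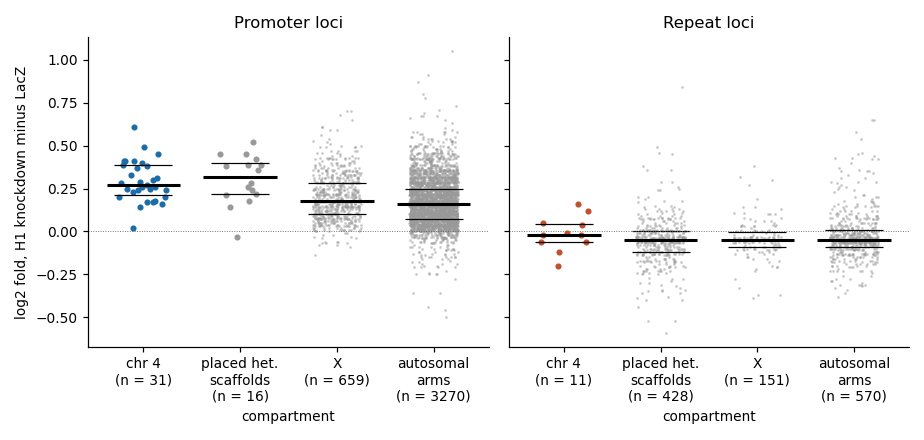
Log2 fold (y axis, H1 knockdown minus LacZ) of promoter loci (left) and repeat loci (right) by compartment (x axis, with the number of loci); each point is a locus, thick lines are medians and thin lines quartiles over loci, not replicate error. Chromosome 4 promoters (median 0.27) and placed scaffold promoters (0.32) lie higher than those of the X (0.18) and the arms (0.16), and all repeat medians lie between -0.05 and -0.02.

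Promoters on the placed heterochromatic scaffolds had folds of a size similar to those of chromosome 4. These 16 loci had a median fold of 0.32, with 15 above 0 and 4 called higher. The 659 X promoters had a median of 0.18, with 7.28% called, and the 3270 arm promoters one of 0.16, with 6.30% called. Concentration moved with the fold: across the 31 chromosome 4 promoters Spearman's rho between fold and mean concentration was -0.38 (Pearson's r -0.38), and across the arm promoters it was -0.48 (Pearson's r -0.41). These are descriptions over loci that share the same libraries, and both measures come from the same values.

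Promoters were therefore set side by side within 3 classes of mean concentration, of about equal size over all promoter loci, a split added after the data were seen. In the lowest class, below a log2 concentration of 8.07, 24 chromosome 4 promoters had a median fold of 0.29 and 7 were called (29.2%), against 0.25 and 11.0% on the arms. In that class, 54.2% of chromosome 4 promoters and 47.9% of arm promoters were in the knockdown list only. With peaks in both lists, the 11 chromosome 4 promoters of that class had a median of 0.25 with 9.09% called, against 0.20 and 5.62% on the arms. In the middle class, 4 chromosome 4 promoters had a median of 0.275, against 0.17, and in the highest class 3 had 0.17, against 0.09, with none of these 7 called. On the placed heterochromatic scaffolds, the 7, 6 and 3 promoters of the lowest, middle and highest class had medians of 0.39, 0.27 and 0.36. The 4 scaffold promoters of the lowest class with peaks in both lists had 0.225. The part of concentration in the chromosome 4 values beyond these classes was not tested.

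**Figure D4:**
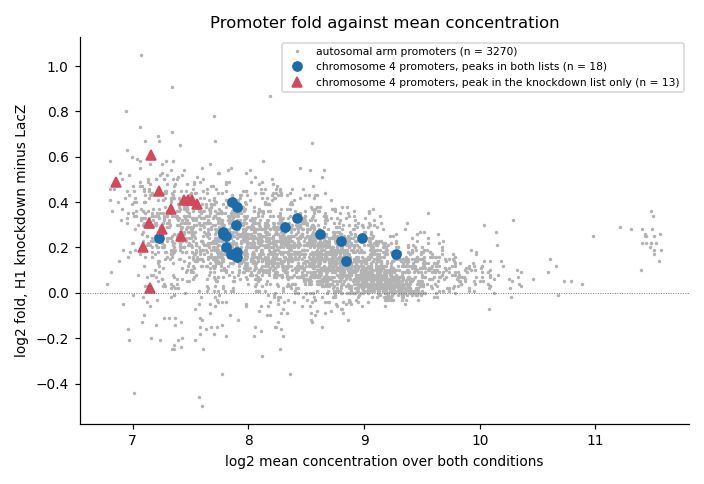
Log2 fold (y axis, H1 knockdown minus LacZ) against log2 mean concentration over both conditions (x axis) for promoter loci; gray points are the 3270 autosomal arm promoters, blue circles the 18 chromosome 4 promoters with peaks in both lists and red triangles the 13 in the knockdown list only. Folds fall with concentration in both sets, and 24 of the 31 chromosome 4 points lie below a log2 concentration of 8.07.

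The 11 repeat loci all had peaks in both lists, and none lay within 1000 bp of a TSS. Reads of repeated copies may not be placed uniquely, which could not be measured here, so a value at a repeat need not belong to its chromosome 4 copy alone. The broadest was a Stalker2 element, an LTR retrotransposon of the Gypsy superfamily, at 342518 to 348008, between the promoter sites of CG32850 and PMCA, with 11.91 in LacZ and 11.85 after knockdown and a fold of -0.06 in the authors' deposited table. The lowest fold, -0.20, was at a LINE J1 element 4651 bp from the TSS of ey, the eye development regulator (732512 to 732901; 6.49 and 6.29, p = 0.489 in the authors' deposited table). A pair of further J1 loci annotated to lncRNA:CR43437 had -0.12 and -0.01 in the authors' deposited table. The J1 family elsewhere had a median of -0.09 over 83 loci, so these 3 lay on both sides of it.

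The highest repeat fold, 0.16, was at TART, one of the retrotransposons that form fly telomeres, at the distal end of the chromosome 4 sites (1292102 to 1292643; 8.29 and 8.45, p = 0.367 in the authors' deposited table). The 17 TART loci elsewhere had a median of 0.07. An Invader1 repeat in unc-13 (930470 to 931364) had 0.12, from 8.99 to 9.12, where the 59 Invader1 loci elsewhere had a median of -0.06 and an upper quartile of -0.015. This repeat lay between both promoter sites of unc-13. A group of 3 DM297 loci annotated to Cadps had -0.06, 0.04 and 0.05 in the authors' deposited table, against a median of -0.04 over 222 loci elsewhere. A BARI DNA transposon annotated to fd102C and a DM176 element annotated to asRNA:CR45124 had -0.02 each, against family medians of -0.01 and -0.04.

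**Figure D5:**
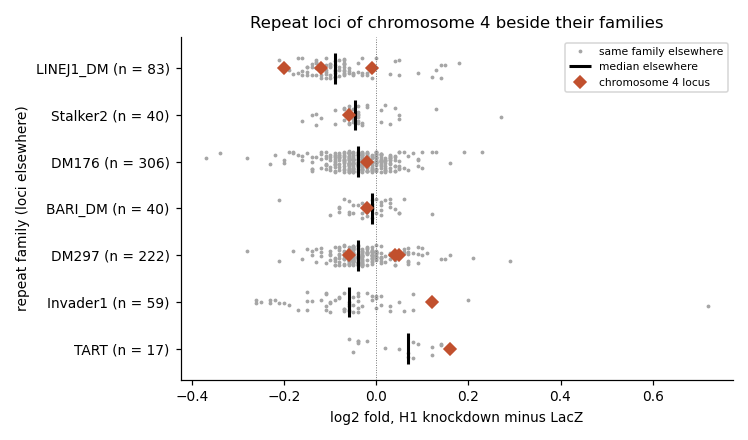
Log2 fold (x axis, H1 knockdown minus LacZ) of the 11 chromosome 4 repeat loci (orange diamonds) beside all loci of the same family elsewhere (gray points, number in brackets) and their median (black bar), by family (y axis). The Invader1 and TART loci lie to the right of their family medians, and the J1 loci spread around theirs.

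A list of chromatin factor genes encoded elsewhere was read last. Whether each factor acts on chromosome 4 was not tested here. Of 14 such genes, 9 had a site near their TSS and none was called; their folds were all above 0, with a median of 0.25. Over all genes with a site near the TSS, 93.5% were above 0 and, as given above, 6.74% were called. All 9 had a LacZ-list peak at the site. Over all 3582 genes with such a peak the median fold was 0.14, with 92.6% above 0 and 4.22% called. The difference was not tested. Pof had 7.61 in LacZ and 7.91 after knockdown, a fold of 0.30 with p = 0.104 in the authors' deposited table. The histone demethylase gene Kdm4A had a fold of 0.25, the gene of HP1a 0.27 and ADD1 0.33 (p = 0.09) in the authors' deposited table. The methyltransferase genes Su(var)3-9 and G9a had 0.20 and 0.10 in the authors' deposited table. The other members with a site were rhi (0.27, p = 0.105), wde (0.15) and Su(var)3-7 (0.08, the lowest), in the authors' deposited table. No site was listed near the TSS of egg, the gene of the methyltransferase that acts on chromosome 4.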

How the data were processed

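Per the submitters' processing notes, the authors aligned reads to dm3 with Bowtie2 2.2.2 and used MACS 1.4.2, DiffBind 2.10.0 and DESeq2, with no settings given; peak names say MACS2. Homer supplied the site annotation, per the file headers. The deposited table gives mean log2 concentrations, folds, p-values and FDR; how the authors scaled libraries is stated in none of the sources, which leaves a fold of 0 without a fixed reference. The authors' peak lists, called on libraries pooled per condition, give a fold enrichment ratio, a −log10 q and a score; the deposited pileup signal and the score were not used. The authors' call score equals an unadjusted p under 0.05 at all 14357 entries.

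Entries that shared 1 bp or more formed a locus, for which the entry of highest mean concentration stood. Values per kb subtract the log2 width in kb. A Release 6 table was used for names, chromosomes, gene types and the gene totals per chromosome. It held the gene numbers of 4753 among the 4755 names. Distances to a TSS are those of the authors' annotation. No fit across libraries was run, since no values per library were used here, and the planned motif search was not run, since no sequence was used. Members, lists and rules were chosen with earlier results of these data known. Values are named for the 10 highest and 6 lowest promoter folds, called loci, the 5 strongest promoters, 3 repeats at each end, list members of smallest p and non-repeat loci of 1 list; others fill in the remainder. Scripts were tested on simulated data. Python 3.11.15, pandas 2.3.3, numpy 2.4.6, scipy 1.17.1 and matplotlib 3.10.9 were used.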

Additional observations from a re-analysis of the deposited data

How the results depend on the processing

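The median folds of all chromosome 4 loci, of its promoters, of its repeats and over its genes kept their sign under every alternative run: low-concentration sites left out, peaks with a −log10 q of at least 5, each entry counted (not for genes), an overlap of 50% (not for genes), sites within 1000 bp of a TSS (promoters), transposon classes only (repeats), and other choices of site per gene. For promoters the sign could not change, since all 31 promoter loci had a fold above 0. The q threshold and the 50% overlap kept the main run's 51 loci, 31 promoters and 11 repeats. The transposon setting also kept all 11 repeats, so these runs could show little. Repeat medians were -0.02 or -0.01, too close to 0 for their sign to be read. Promoter medians ran from 0.245, for loci with peaks in both lists (added after the data were seen), to 0.27. No entry passed at an FDR of 0.10 or when p-values were adjusted anew over 1 entry per locus. The count of 8 loci called higher was 9 when any entry of a locus sufficed, 1 at an unadjusted p under 0.01, and 1 among loci with peaks in both lists, where fewer loci were tested. Loci with peaks of both lists numbered 37, and 36 with the stricter peak threshold. No paired analysis was possible because the files hold no values per library, and replicates could not be left out for the same reason. Depth is unknown.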

Other observations

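Peaks of the knockdown list were wider than their LacZ partners at chromosome 4 promoters. Of the 18 promoter loci with exactly 1 peak of each list, the knockdown peak was the wider at 18, with a median excess of 97 bp, and the share over all compartments was 92.6% of 3243 loci with a median excess of 53 bp. At the 11 repeat loci it was wider at 10, against 61.9% of 2014 repeat loci over all compartments. Peak width depends on how each pooled list was called, and the part of depth in these widths was not tested.

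Along the chromosome, the 15 proximal promoters had a median fold of 0.29 with 5 called higher, and the 16 distal ones 0.245 with 2 called higher, by the authors' deposited table, where 6.7% of all promoter loci were called. Of these calls, 5 of the proximal 5 and 1 of the distal 2 were at promoters in the knockdown list only. Spearman's rho between promoter fold and order was -0.20 over 31 loci (Pearson's r -0.17), given as a description.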
